A study of Mus musculus with 22 samples.

Results

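The distal 10 Mb of each of the 19 mouse autosomes, the stretch on the telomere side, was examined for contact with the nuclear lamina in mouse embryonic fibroblasts (MEFs). Each window ended at the largest interval end found on its chromosome in any of 11 deposited lists of lamina-associated domains (LADs) and reached back 10 Mb. The windows held 6353 of the 79943 intervals deposited for chromosomes 1 to 19, between 362 and 719 per list, and made up 190 of 2415 Mb, or 7.87% of the span covered by the lists. The remaining 2225 Mb of the same chromosomes served as the comparison. Intervals were clipped to the window, joined where less than 25 kb lay between them and kept where longer than 100 kb. What was left is called a LAD here, and coverage is the percentage of bases inside LADs, averaged over the 19 chromosomes with equal weight.

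LADs are long stretches of mostly silent chromatin that lie against the lamina, the meshwork of A-type and B-type lamins under the inner nuclear membrane. Genes in LADs tend to be lowly expressed and LAD chromatin tends to carry dimethylated histone H3 lysine 9, a mark placed by the methyltransferase G9a, with trimethylated lysine 27, placed by EZH2, near LAD borders. Mouse autosomes are telocentric, so that one end of each carries the centromere and the other, examined here, only a telomere. In DamID, lamin B1 carries the bacterial enzyme Dam, which methylates adenine in the DNA that the lamina touches, and free Dam serves to correct for how open the DNA is.

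The lists came from 22 libraries of primary MEFs from e13.5 embryos of the C57bl/6 background, cultured for no more than 5 passages. Each list rested on 1 Dam-lamin B1 and 1 Dam-only library of one embryo, and pairs were not pooled. There were 3 WT lists (embryos 1.5, 1.8 and x17) from MEFs with no treatment, 2 shAC lists (embryos 1.5 and x17) from MEFs with a hairpin virus against lamin A/C, and 2 lists each (embryos 1.8 and x17) from MEFs given BIX01294, DZNep or TSA. BIX01294 inhibits G9a, DZNep lowers histone methylation, that placed by EZH2 included, and TSA inhibits histone deacetylases. In the shAC cultures infected cells were selected with puromycin, the Dam virus followed on day 4 and cells were harvested 48 h later. The drugs were given for 18 to 24 h before the Dam virus, with harvest at 60 h counted from a step the labels do not name. WT cells carried no control hairpin, so hairpin and selection cannot be told apart from the loss of lamin A/C. All 4 treatments were set against the same 3 WT lists. The lists hold interval starts and ends with no score, so depth is unknown, precision rests on the number of lists, and neither the identity of the cells nor the lamin A/C knockdown could be checked in them. Positions are in mm9, the build named in the submitters' processing notes.

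By the mean over chromosomes, but not by the median, the distal windows of WT MEFs were slightly less covered by LADs than the rest. Coverage of the windows was 54.3% in embryo 1.5, 59.2% in embryo 1.8 and 55.4% in embryo x17, a mean of 56.3% ± 2.60 (SD, n = 3). The rest of the chromosomes had 56.8%, 62.3% and 59.1% in the same embryos. The difference was -3.08 ± 0.610 percentage points (SD, n = 3) and negative in 3 of 3 lists, and 3 lists allow a two-sided exact sign-flip test no p below 0.25, which was the value found. The difference grew to -6.14 at a minimum LAD length of 500 kb and shrank to -1.48 with windows of 5 Mb. The 10 Mb nearest the centromere were more covered, at 65.7% ± 3.63 (SD, n = 3) in WT. The mean difference between distal windows and rest turned largely on chromosome 8. Without that chromosome it was -0.48 percentage points (two-sided exact sign-flip test, p = 0.5), and the 3 lists differed in sign. With any one other chromosome left out the mean difference stayed negative, down to -4.77 without chromosome 18.

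Single chromosomes differed far more than this mean. WT coverage of the distal window ran from 14.7% on chromosome 8 to 82.8% on chromosome 18 with a median of 62.2%, and the SD over the 19 windows was 18.3 percentage points. The rest had a median of 59.6% over the 19 chromosomes, so that by the median the distal windows were the more covered. The other 211 windows of 10 Mb, laid back from the same ends, had an SD of 18.5, so the distal windows were about as unlike each other as 10 Mb stretches elsewhere. The WT mean lay below that of the rest on 11 of 19 chromosomes. All 3 WT lists lay below the rest on 9 chromosomes and above it on 6, and all 11 lists did so on 8 and 5. Coverage of the distal window and coverage of the rest had little relation over the 19 chromosomes (Pearson's r = 0.095, Spearman's rho = 0.042, given as a description, since all points share the same lists).

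**Figure D1:**
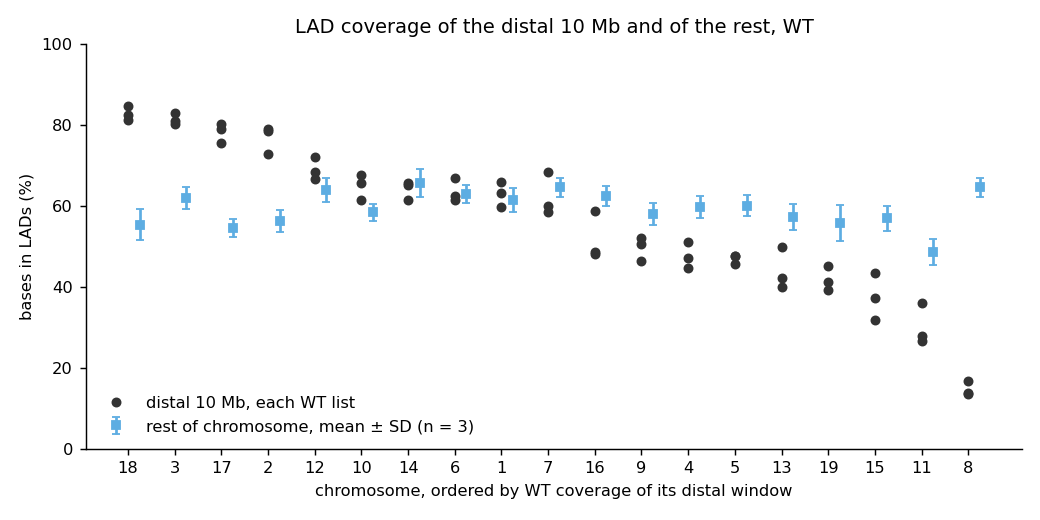
LAD coverage (%) of the distal 10 Mb in each of 3 WT lists (black points) and of the rest of the same chromosome (blue squares, mean ± SD, n = 3), with chromosomes ordered by the mean of the window. The windows run from 82.8% on chromosome 18 to 14.7% on chromosome 8, while the rest stays between 48.7% and 65.7%.

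The highest coverage was found on chromosomes 18, 3 and 17. On chromosome 18 the window from 80770908 to 90770907 was covered to 81.2%, 84.6% and 82.5% in the WT lists of embryos 1.5, 1.8 and x17, against 55.4% in the rest of that chromosome. On chromosome 3 the values were 80.9%, 80.4% and 82.9% (149588406 to 159588405), with 62.0% in the rest. On chromosome 17 they were 79.1%, 80.1% and 75.4% (85272649 to 95272648), with 54.5% in the rest. In each of these windows every WT list stood clear of the rest of its chromosome.

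The lowest coverage was found on chromosomes 8, 11 and 15. The window of chromosome 8 (121738781 to 131738780) was covered to only 13.8% in WT embryo 1.5 and 16.8% in embryo 1.8, with a mean of 14.7% ± 1.81 over the 3 WT lists, against 64.6% in the rest, and was the least covered of all 230 windows of 10 Mb on the autosomes. On chromosome 11 (111843412 to 121843411) the values were 27.9%, 35.9% and 26.5%, with 48.7% in the rest, and on chromosome 15 (93494972 to 103494971) they were 31.7%, 43.3% and 37.2%, with 56.9% in the rest. These windows kept their low rank in spite of a wider spread between embryos on chromosomes 11 and 15, with SDs of 5.08 and 5.80 percentage points.

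The longest stretch that was LAD in all 11 lists lay on chromosome 18, from 85131492 to 88902617. It was 3771 kb long and ended 1.87 Mb before the last called base. The next was 3358 kb long, on chromosome 2 from 174310262 to 177668161. The longest stretches that were LAD in no list were 725 kb on chromosome 11 (115823684 to 116548393) and 702 kb on chromosome 8 (124380270 to 125082170). In all, 77.0 Mb of the windows (40.5%) were LAD in every list and 57.9 Mb (30.5%) in none, compared with 44.6% and 27.4% of the rest. Bases called in all 3 WT lists made up 78.8% of those called in any WT list in the windows and 79.3% in the rest, so that WT lists overlapped about as well near the distal end as elsewhere.

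The end of each window is the last base called in any list, so that calls near it are partly fixed by how the window was set, and the distance to the physical chromosome end was not measured. A LAD lay within 100 kb of the last called base in all 11 lists on 13 of the 19 chromosomes. Chromosome 7 was the only one on which no list had such a LAD, and its last LAD stopped between 430 and 921 kb short. The last megabase was LAD to 67.6% ± 3.95 in WT and the one before it to 65.9% ± 2.08 (SD, n = 3). Over the last 2 Mb together, WT coverage was 65.9%, 70.1% and 64.3% in embryos 1.5, 1.8 and x17. From 2 to 10 Mb it was 51.5%, 56.7% and 53.2%, lower in 3 of 3 lists by 12.9 ± 1.68 percentage points, given without a test because the ends were set by these calls. Among 29 consecutive steps of 2 Mb counted from the distal end, the last 2 Mb had the highest WT mean, at 66.8%, although the next highest step reached 66.7%. The division at 2 Mb was chosen after the profile by distance had been seen.

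LADs in the distal windows, joined and filtered, had a lower median length than those elsewhere. The windows held 175 ± 10.1 LADs in WT (SD, n = 3). Their median length was 348, 326 and 301 kb in embryos 1.5, 1.8 and x17, against 398, 358 and 340 kb in the rest. The mean difference of -40.1 kb was negative in 3 of 3 lists (two-sided exact sign-flip test, p = 0.25, the smallest possible). Leaving out LADs that touch a border of the window or of the rest gave -46.8 ± 8.31 kb (SD, n = 3). In WT, 21, 23 and 23 LADs of the windows touched a border in embryos 1.5, 1.8 and x17. Long LADs meet a border more often, and borders lie closer together in the windows. Dropping such LADs therefore tends to lower the window median and is no check on the effect of clipping. A minimum LAD length of 200 kb gave -91.0 kb. The sign turned to 18.2 kb in the lists as deposited, with neither joining nor length filter, and to 13.8 kb when the last 1 Mb was left out of each window. LADs over 1000 kb held 51.6% ± 1.51 of LAD bases in the windows and 60.3% ± 1.89 in the rest (SD, n = 3). The cut between window and rest can shorten a LAD on both sides. It weighs more in the windows, which hold far fewer LADs, and its effect on these shares was not measured.

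Set against WT, mean coverage of the windows was lower in shAC and TSA, higher in BIX01294 and nearly equal in DZNep. None of these differences passed an exact permutation test, with p of 0.3 or more. The 10 arrangements of 3 and 2 lists allow no p below 0.1. The shAC lists had 54.5% (embryo 1.5) and 50.1% (embryo x17), the BIX01294 lists 57.6% (embryo 1.8) and 60.0% (embryo x17), the DZNep lists 56.7% and 56.9%, and the TSA lists 55.8% and 52.6% in the same order. Every treated group overlapped the WT range of 54.3% to 59.2%. With windows of 5 Mb both TSA lists, at 50.6% and 53.6%, lay below the WT range of 56.3% to 60.9%, a difference of -5.71 percentage points (exact permutation test, p = 0.1). The differences from WT were -4.02 percentage points for shAC, 2.48 for BIX01294, 0.48 for DZNep and -2.10 for TSA, with p = 0.3, 0.3, 0.9 and 0.6 in two-sided exact permutation tests and 0.6, 0.6, 0.9 and 0.8 after Benjamini-Hochberg adjustment over the 4 treatments. With a minimum LAD length of 200 kb the shAC difference was -4.77 (exact permutation test, p = 0.1). In the remaining interval and window settings the same test gave p from 0.2 to 0.4 for shAC and from 0.2 to 0.7 for TSA. Single lists moved these values. The shAC difference was -1.85 without the list of embryo x17, -6.18 without that of embryo 1.5 and -2.55 without the WT list of embryo 1.8. The DZNep difference turned to -0.53 without the WT list of embryo 1.5. The TSA difference was -0.53 without the list of embryo x17 and -3.68 without that of embryo 1.8, and -0.64 without the WT list of embryo 1.8. The BIX01294 difference was 1.27 without its list of embryo x17, 1.47 without the WT list of embryo 1.5 and 3.95 without that of embryo 1.8. Against the WT list of the same embryo, shAC differed by 0.17 in embryo 1.5 and by -5.28 in embryo x17. BIX01294 differed by -1.65 in embryo 1.8 and 4.60 in embryo x17, and DZNep by -2.59 and 1.52. TSA, at -3.46 and -2.77, was the only treatment with the same sign in both embryos.

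**Figure D2:**
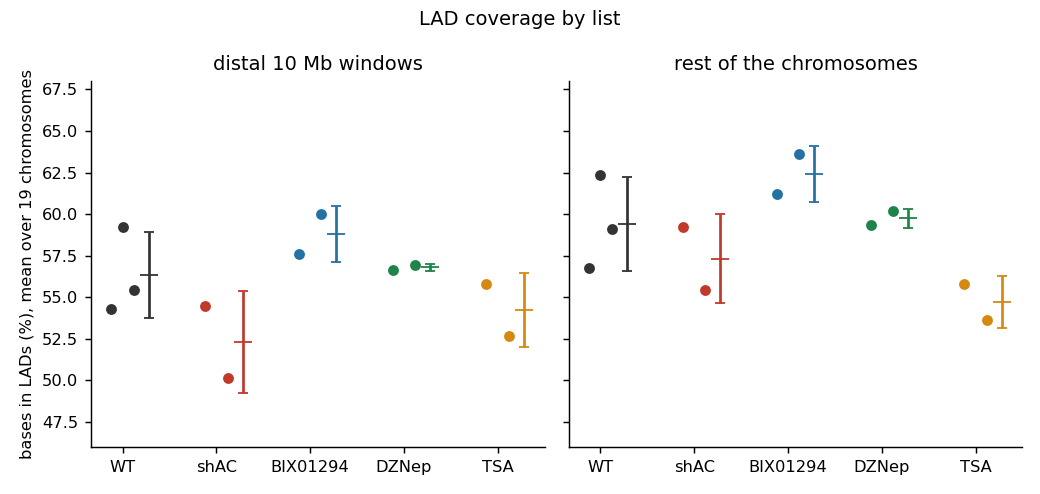
LAD coverage (%, mean over 19 chromosomes) of each list in the distal 10 Mb windows (left) and in the rest of the chromosomes (right). Points are lists, bars are mean ± SD (n = 3 for WT, n = 2 for the others), and the axis starts at 46%. In the windows every treated group overlaps the WT range, and in the rest both TSA lists, at 55.8% and 53.6%, lie below the lowest WT list.

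The response of the windows was next compared with that of the rest of the same chromosomes, by subtracting coverage of the rest from coverage of the window within each list. This difference was -2.46, -3.10 and -3.68 percentage points in the WT lists of embryos 1.5, 1.8 and x17. In shAC it was -4.74 and -5.31, below all WT lists, and in TSA -0.020 and -0.99, above all WT lists. The response of the windows, taken as treated minus WT, minus that of the rest was thus -1.94 percentage points in shAC (p = 0.1, the smallest an exact permutation test can give here, adjusted p = 0.2). In TSA it was 2.58 percentage points (p = 0.1, exact permutation test, adjusted p = 0.2), with the rest differing from WT by -4.68. The values were -0.53 for BIX01294 (exact p = 0.4, adjusted p = 0.53) and 0.12 for DZNep (exact p = 0.9, adjusted p = 0.9), and the lists of both overlapped WT. These values depended on the settings. The shAC value stayed negative. It was -1.79 in the lists as deposited and -1.66 with joining under 50 kb (exact permutation tests, p = 0.2 for each). With windows of 5 Mb the shAC value was -1.77 (exact permutation test, p = 0.3). At a minimum LAD length of 500 kb the BIX01294 value was -1.34 and the DZNep value 0.94 (exact permutation tests, p = 0.1 for each, the smallest possible). The BIX01294 value was -0.22 without the WT list of embryo 1.5 and -0.83 without that of embryo x17, and the DZNep value was 0.43 without the WT list of embryo 1.5. With windows of 5 Mb the BIX01294 value was -1.55, and the sign turned for DZNep (-0.37) and TSA (-1.32). That of DZNep was also negative with windows of 20 Mb (-0.050), without the WT list of embryo x17 (-0.18) and without the DZNep list of embryo 1.8 (-0.15).

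Chromosome by chromosome, 6 of the 19 windows had both shAC lists below all 3 WT lists and 0 had both above, where 22.2% and 3.48% of all 230 windows of 10 Mb did so. Those below were on chromosomes 2, 4, 5, 6, 10 and 17. The mean was lower than in WT in 18 of 19 windows, with a median difference of -4.01 percentage points, compared with 176 of 230 windows and -2.07 over all of them. Against WT of the same embryo, coverage was lower in 17 and higher in 2 windows in embryo x17 but lower in 10 and higher in 9 in embryo 1.5. On chromosome 4 coverage was 43.5% and 35.1% in shAC (embryos 1.5 and x17) and 44.6%, 51.2% and 47.0% in WT, and on chromosome 17 it was 74.3% and 69.2% in shAC and 79.1%, 80.1% and 75.4% in WT. The largest difference in means, -11.9 percentage points, was on chromosome 7 and rested on a single list: embryo x17 had 39.7% and embryo 1.5 had 60.9%, inside the WT range of 58.4% to 68.3%.

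With BIX01294, 0 windows lay below WT without overlap and 3 lay above, on chromosomes 4, 14 and 17, where 0.87% and 21.7% of all windows did so. On chromosome 4 both lists, at 54.1% and 53.8%, stood above the highest WT value of 51.2%. The median difference of 2.83 percentage points was close to the 2.80 of all windows. With DZNep, 1 window lay below WT (chromosome 3, 78.7% and 80.0%) and 1 above (chromosome 4, 51.3% and 52.0%), where 5.65% and 3.48% of all windows did so. Counts for both inhibitors of histone methylation were near these shares.

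With TSA, 6 windows lay below WT without overlap (chromosomes 1, 3, 6, 10, 13 and 14) and 1 above (chromosome 8), against 43.5% and 3.91% of all windows. The mean was lower than in WT in 10 of 19 windows and in 175 of 230, and the median difference was -1.48 percentage points in the distal windows and -4.26 over all. The window of chromosome 6 had 52.7% and 52.2% in TSA (embryos 1.8 and x17) against 66.9%, 61.6% and 62.4% in WT. That of chromosome 3 had 66.9% and 73.9% against at least 80.4%. Chromosome 8, the least covered in WT, went the other way, with 23.7% and 17.6% against no more than 16.8% in WT. Windows of the same treatment therefore differed in sign.

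**Figure D3:**
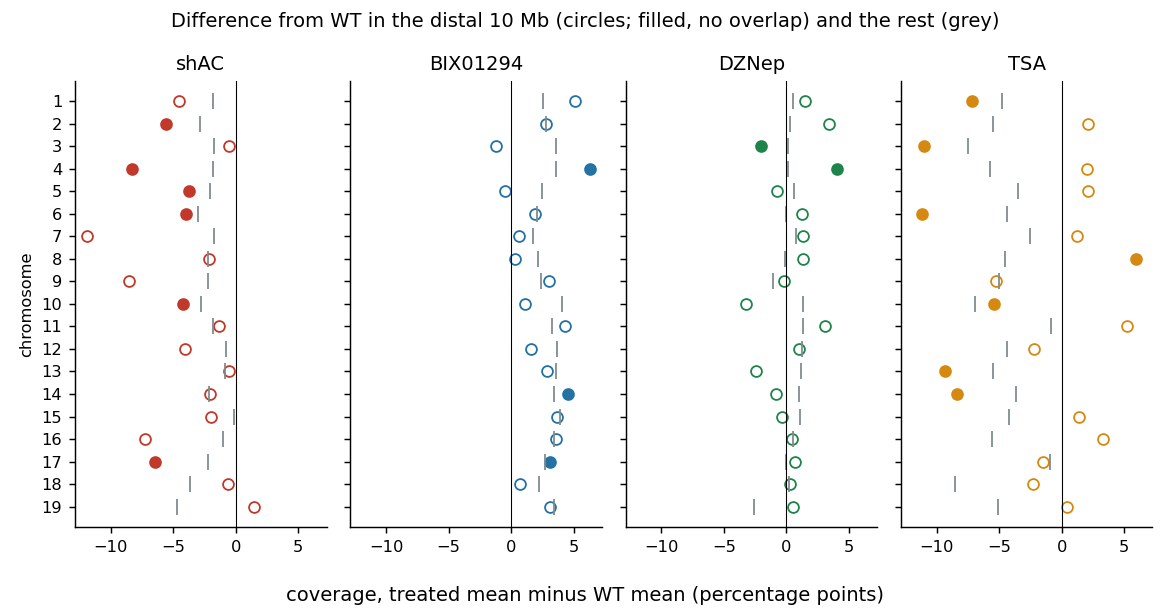
Difference in LAD coverage between treated and WT means (percentage points) for each chromosome, in the distal 10 Mb (circles) and in the rest (grey ticks). Filled circles mark windows in which no treated list overlaps a WT list, 6 below WT in shAC and 6 below with 1 above in TSA.

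Within the windows, the TSA lists lay furthest from WT in the last 2 Mb. Values by distance are given as descriptions with no test, since the ends were set by the calls of these lists and the division at 2 Mb was chosen with the TSA profile in view. Coverage of the last 2 Mb was 55.4% and 52.9% in TSA (embryos 1.8 and x17), below the WT range of 64.3% to 70.1% by 12.6 percentage points in the means. From 2 to 10 Mb the TSA lists, at 55.9% and 52.6%, lay inside the WT range of 51.5% to 56.7%, with a difference of 0.48. Against WT of the same embryo this difference was -0.74 in embryo 1.8 and -0.60 in embryo x17, and it also turned negative without the WT list of embryo 1.5 (-0.67) or the TSA list of embryo 1.8 (-1.17), so that its sign depended on the lists compared. The excess of the last 2 Mb over the next 8 Mb was 14.4, 13.4 and 11.1 percentage points in WT and -0.52 and 0.31 in TSA, a difference of -13.1. Against WT of the same embryo, coverage of the last 2 Mb differed by -14.7 in embryo 1.8 and -11.4 in embryo x17. In TSA the other 28 steps of 2 Mb differed from WT by between -9.31 and 3.02 percentage points, so the last 2 Mb had the largest difference of the 29. Lower coverage was not confined to the end, however, as both TSA lists lay below all WT lists in 15 of the other 28 steps. All 15 lay 22 Mb or more from the end, and every step from 2 to 22 Mb overlapped WT. The difference was -0.65 from 10 to 20 Mb, with single lists left out between -2.04 and 0.74, then -5.70 from 20 to 30 Mb and -5.00 beyond 30 Mb. The 2 Mb at the centromere side, with 59.1% and 56.4% in TSA and 58.4% to 63.3% in WT, differed by -3.02.

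In shAC the last 2 Mb differed from WT by -4.76 percentage points in the mean, with a median over chromosomes of -1.85. From 2 to 10 Mb the mean differed by -3.81. Similar differences of -4.01 and -3.87 were found from 10 to 20 and from 20 to 30 Mb, and -1.61 beyond 30 Mb. All of these depended on single lists. Without the shAC list of embryo x17 they were -1.99 in the last 2 Mb, -1.78 from 2 to 10 Mb, -2.16 from 10 to 20 Mb, -1.43 from 20 to 30 Mb and 0.19 beyond 30 Mb. Without the WT list of embryo 1.8 they were -3.10, -2.37, -2.81, -2.60 and -0.075 from the end inwards. Against WT of the same embryo, shAC differed in the last 2 Mb by -1.11 in embryo 1.5 and -5.10 in embryo x17, and from 2 to 10 Mb by 0.52 and -5.26. For BIX01294 and DZNep the last 2 Mb differed from WT by 0.82 and 0.014 percentage points. With single lists left out these ran from -0.39 to 2.48 and from -1.20 to 1.67. Against WT of the same embryo both had opposite signs, with -2.71 in embryo 1.8 and 3.47 in embryo x17 for BIX01294 and -3.24 and 2.38 for DZNep.

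**Figure D4:**
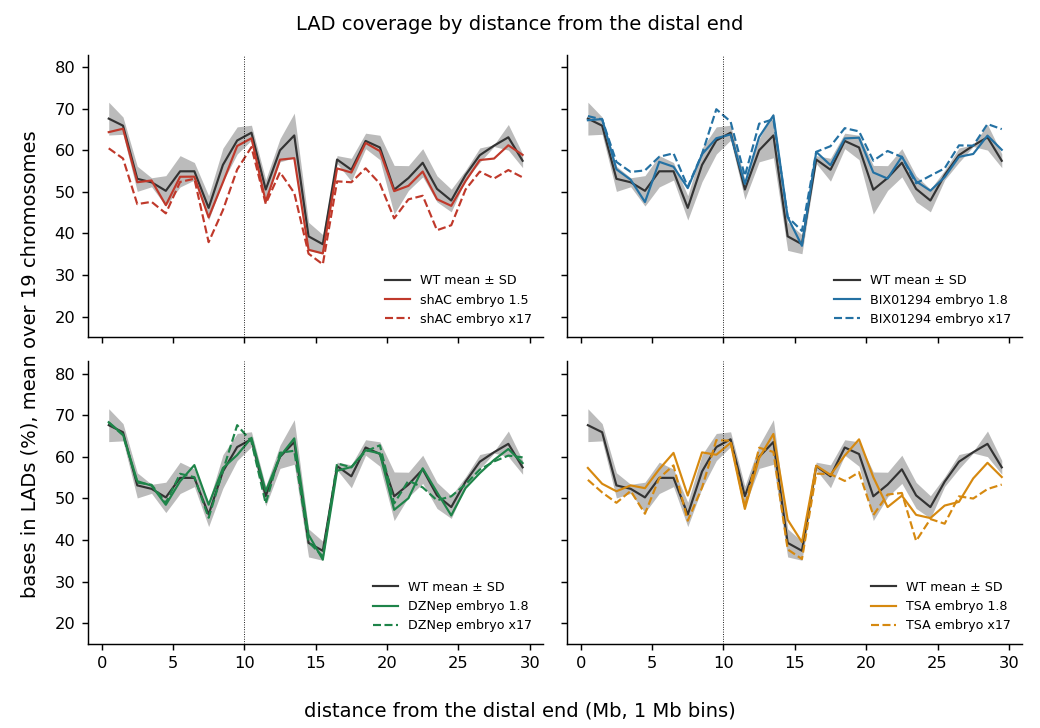
LAD coverage (%, mean over 19 chromosomes) in 1 Mb bins by distance from the distal end (Mb). Black lines and grey bands are the WT mean ± SD (n = 3), coloured lines are single treated lists, and the dotted line marks 10 Mb. Both TSA lists lie below the WT band in the last 2 bins, at 57.3% and 54.5% in the outermost against 67.6% in WT.

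The lower coverage of the last 2 Mb in TSA was spread over chromosomes but uneven. Both TSA lists lay below all WT lists on 11 of the 19 chromosomes and above them on 0, where 29.8% and 5.33% of 1200 windows of 2 Mb did so. The TSA mean was lower on 15 of 19 chromosomes and in 64.9% of all 2 Mb windows. On chromosome 9 the last 2 Mb were LAD to 64.9%, 53.3% and 65.6% in WT and to 11.5% and 12.1% in TSA. On chromosome 6 the values were 82.8%, 79.5% and 75.4% in WT and 42.6% and 34.3% in TSA. Chromosome 14 went from 97.4%, 100% and 98.7% to 55.8% and 61.8%, and chromosome 13 from 86.4%, 88.4% and 87.3% to 49.2% and 58.1%. On chromosome 18 the WT lists had 93.7% to 95.6% and the TSA lists 76.7% and 74.5%. Without these 5 chromosomes the mean difference was -3.98 percentage points, and with any single chromosome left out it ran from -14.0 to -10.5. On chromosome 17, also among the 11, the TSA lists had 96.5% and 96.3% against 96.7%, 100% and 98.7% in WT. On chromosome 10 TSA had 80.0% and 78.0% against 77.8%, 79.3% and 78.2%, and on chromosome 4 TSA had 56.4% and 43.9% against 29.9%, 48.4% and 31.2% in WT.

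In the same 2 Mb, shAC lists lay below WT without overlap on 6 chromosomes, where 15% of all 2 Mb windows did so, and above on 1, against 4% of all. The shAC mean was lower on 11 of the 19 chromosomes and in 59.1% of all 2 Mb windows. The largest differences in means were -25.9 percentage points on chromosome 9, -23.5 on chromosome 4, -17.8 on chromosome 6 and -14.4 on chromosome 7. Chromosome 9 was among those below, with 44.8% and 25.8%. On chromosome 4 the shAC list of embryo x17 had 0% in the last 2 Mb, which says that no LAD over 100 kb was called there, and that of embryo 1.5 had 26.0%.

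**Figure D5:**
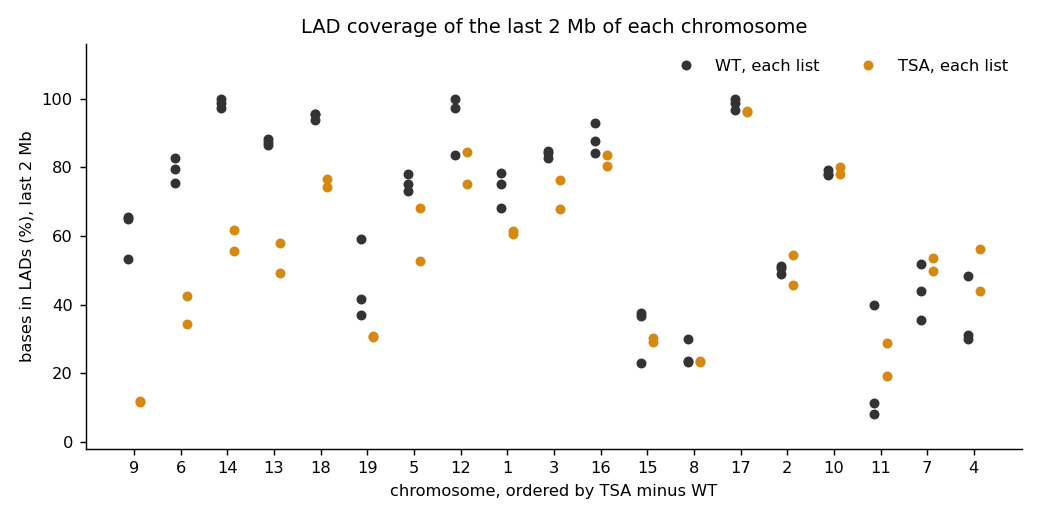
LAD coverage (%) of the last 2 Mb of each chromosome in the 3 WT lists (black) and the 2 TSA lists (orange), ordered by the difference of the means. Chromosome 9 at the left has 53.3% to 65.6% in WT and 11.5% and 12.1% in TSA, and chromosome 4 at the right has the highest TSA values relative to WT.

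Most WT LAD bases in the windows were called again after every treatment. One WT list kept 92.2% ± 3.29 of its distal LAD bases in another WT list (SD over 6 ordered pairs that share lists). The share was 87.8% ± 4.28 in shAC, 94.9% ± 1.75 in BIX01294, 93.5% ± 1.83 in DZNep and 86.6% ± 1.55 in TSA (SD over 6 pairs each). In the rest the corresponding means were 92.4%, 90.8%, 95.4%, 93.7% and 85.9%. The shAC share was thus lower in the windows than in the rest, while windows and rest differed by less than 1 percentage point in the other groups. Of the LAD borders of a WT list in the windows, 49.1% had a border of the same kind within 25 kb in an shAC list, 53.9% in a BIX01294 list, 55.4% in a DZNep list, 45.3% in a TSA list and 51.7% in another WT list. In the rest these shares were 47.6%, 52.1%, 55.3%, 43.4% and 48.0%.

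Bases called in all 3 WT lists and in neither treated list, here called lost, came to 2.17 Mb of the windows in shAC, 0.290 Mb in BIX01294, 0.562 Mb in DZNep and 5.00 Mb in TSA. They made up 2.31%, 0.308%, 0.596% and 5.30% of bases called in all WT lists, compared with 1.09%, 0.228%, 0.437% and 4.52% in the rest. Bases called in both treated lists and in no WT list, here called gained, came to 0.110 Mb in shAC, 1.05 Mb in BIX01294, 0.490 Mb in DZNep and 1.93 Mb in TSA. They made up 0.121%, 0.9995%, 0.487% and 2.07% of bases called in both treated lists, compared with 0.519%, 0.844%, 0.493% and 0.887% in the rest. In TSA, 2.99 Mb of the loss (59.8%) lay in the last 2 Mb, where it took 13.4% of the bases called in all WT lists against 2.79% from 2 to 10 Mb, whereas 99.5% of the gain lay from 2 to 10 Mb. The share of the loss that lay in the last 2 Mb was 72.7% in BIX01294, 61.1% in DZNep and 39.3% in shAC, so a share of this size was not particular to TSA. These counts carry no test.

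The longest lost and gained stretch of each treatment was next followed through the lists of the other groups. In TSA a stretch of 377 kb on chromosome 14 (122892492 to 123269915), 1.91 Mb from the end, was LAD throughout in the WT and both BIX01294 lists, to 99.3% and 59.9% in shAC, to 100% and 87.2% in DZNep and to 0% in both TSA lists. The gained stretch of 405 kb on chromosome 5 (143117253 to 143522528) was LAD throughout in both TSA lists and to 0% in all 9 others. It was the only one of the 4 gained stretches that no list of another group covered.

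In shAC a stretch of 176 kb on chromosome 5 (144680585 to 144856514) was lost, which DZNep embryo x17 covered to 45.1% and the other drug lists to 94.9% or more. The longest gained stretch was only 22.7 kb, on chromosome 3 (157914743 to 157937488), and was also covered in full by the BIX01294 and DZNep lists of embryo x17. BIX01294 lost 121 kb on chromosome 6 (148910012 to 149031481), which was also at 0% in both shAC and both TSA lists and in DZNep embryo x17. It gained 150 kb on the same chromosome (142329026 to 142479060), which shAC embryo 1.5 covered to 81.1% and DZNep embryo x17 to 79.6%. DZNep lost 143 kb on chromosome 4 (155411663 to 155554169), 0.052 Mb from the end. This stretch was also at 0% in both shAC lists, while BIX01294 covered it to 82.2% and 100% and TSA to 100% and 99.8%. DZNep gained 122 kb on the same chromosome (150326155 to 150448323), which both BIX01294 lists covered in full and the TSA lists to 9.74% and 9.52%.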

How the data were processed

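DamID-seq reads of 11 Dam-lamin B1 and Dam-only pairs had been segmented by the authors with LADetector, which calls LADs from the ratio of both libraries. The authors deposited 1 list per pair with interval starts and ends as whole bases and no score. The build, mm9, was taken from the submitters' processing notes. The aligner is not given in the sources used here. Gene models, sequence and GC content of that build were not used here. All deposited columns other than chromosome, start and end were left out, and 0 columns of unmapped samples were present. The lists hold intervals under 25 kb apart and under 100 kb long, so joining (gaps under 25 kb) and the length filter (over 100 kb) were applied after clipping to the windows.

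Groups and embryo names came from the labels. Lists with the same embryo name were taken as the same animal, which is the source of the pairing in the replicate block. Deviations of same-embryo lists from their group means over the 19 windows correlated between -0.24 and 0.49 over 17 pairs. WT windows and rest were compared by two-sided exact sign-flip tests over 3 lists, and treated lists with WT by two-sided exact permutation tests over 10 arrangements, with Benjamini-Hochberg adjustment over 4 treatments. These p-values measure the spread between lists, in which embryo, library and calling are mixed. The permutation tests treated lists as separate units, although every treated list came from an embryo that also gave a WT list. Treated means were also set against 230 windows of 10 Mb and 1200 of 2 Mb laid back from the distal ends. Named intervals were, by rule, the 2 longest called in all lists, the 2 longest called in none, the longest lost and gained for each treatment, and the chromosomes with the 3 highest and 3 lowest WT means. Chromosomes named otherwise were chosen after their values were seen. The members, measures and rules were chosen with earlier results of these data known. Scripts ran under Python 3.11.15 (numpy 2.4.6, scipy 1.17.1, matplotlib 3.10.9) and their interval operations were tested on simulated data first. The alternatives tried were no joining or filter, a minimum length of 200 or 500 kb, joining under 50 kb, joining and filtering before clipping, windows of 5 and 20 Mb, the last 1 Mb left out, bases pooled over chromosomes, the rest without the 10 Mb nearest the centromere, the replicate block and each list left out in turn.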

Additional observations from a re-analysis of the deposited data

Results flagged for a closer look

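Set against the WT list of the same embryo, the response of the distal windows minus that of the rest of the chromosomes was negative in both shAC lists and positive in both TSA and both DZNep lists. It was -2.28 percentage points in embryo 1.5 and -1.63 in embryo x17 for shAC, 3.08 in embryo 1.8 and 2.69 in embryo x17 for TSA, and 0.41 and 0.45 in the same embryos for DZNep. The means differed by 4.84 percentage points between TSA and shAC and by 2.39 between DZNep and shAC. These differences between treatments were not tested, and each pair of treatments shares WT lists and only embryo x17.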

How the results depend on the processing

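The 15 results recomputed gave 220 alternative values, of which 204 kept the direction, or for shares of kept bases stayed within 1 SD of the reported value. No p could pass 0.05 in this design, so no call could change. The median length difference turned positive in the lists as deposited (18.2 kb) and with the last 1 Mb left out (13.8 kb). DZNep minus WT coverage turned negative at a minimum length of 500 kb (-0.10 percentage points), without the WT list of embryo 1.5 and in the replicate block (both -0.53). The DZNep response relative to the rest was -0.37 with a 5 Mb and -0.050 with a 20 Mb window, and the TSA response -1.32 with a 5 Mb window. Kept bases moved at 500 kb to 91.6% (BIX01294), 90.4% (DZNep) and 82.0% (TSA), and for TSA also to 84.5% at 200 kb, 83.2% with a 5 Mb and 88.4% with a 20 Mb window. Over the settings that did not leave out a single list, coverage relative to WT ran from -4.77 (200 kb) to -2.55 (replicate block) in shAC, from 1.38 (500 kb) to 3.36 (joining under 50 kb) in BIX01294 and from -5.71 (5 Mb window) to -1.08 (last 1 Mb left out) in TSA. With each list left out, coverage relative to WT ran from -6.18 to -1.85 (shAC), 1.27 to 3.95 (BIX01294), -0.53 to 1.94 (DZNep) and -3.68 to -0.53 (TSA), and the response relative to the rest from -2.24 to -1.63, -0.83 to -0.22, -0.18 to 0.43 and 2.09 to 3.06. The DZNep response was negative without the WT list of embryo x17 (-0.18) and without the DZNep list of embryo 1.8 (-0.15). In the replicate block the shAC coverage difference was -2.55 and that of BIX01294 1.47, and no other direction than that of DZNep changed. Leaving out chromosome 8 was added after seeing the data. No depth or score is given, so weak and strong calls count alike.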
